A study of Homo sapiens with 6 samples.

Results

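The SLC25 genes encode the mitochondrial carriers, a large family of transporters in the inner membrane of mitochondria. They exchange nucleotides, phosphate, carboxylic acids, amino acids and cofactors between the cytosol and the matrix. They are made on cytosolic ribosomes from nuclear genes, and each carrier is built from 3 tandem repeats of about 100 residues that share a signature motif of a proline, an acidic and a basic residue. Members were taken as all gene symbols of the form SLC25A followed by a number in either of the 2 tables of the series, which gave 36 of 10779 genes. Of these, 28 had a translational efficiency, 34 had codon-resolved ribosome occupancy and 26 had both. SLC25A39 and SLC25A46 were present only in the efficiency table, and SLC25A22, SLC25A23, SLC25A24, SLC25A26, SLC25A27, SLC25A29, SLC25A37 and SLC25A42 only in the occupancy table. The ADP/ATP carrier genes SLC25A6 and SLC25A31 were not analysed here.

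Ribosome profiling sequences the short mRNA fragments that ribosomes protect from nuclease (RPFs). The samples are HEK293 cells, a line derived from human embryonic kidney, in 1 condition with 3 replicates, each giving an RPF library and a total RNA library from the same lysate. The labels describe the cells as receiving a control siRNA. According to the methods, the living cells were treated briefly with cycloheximide, which holds ribosomes on the mRNA. The wash and the lysis buffer held it as well. With a single condition, no group of samples was compared. Translational efficiency (TE) divides the RPFs of a gene by its total RNA in each replicate. Ribosome occupancy is the in-frame RPF signal at each codon divided by the abundance of the mRNA, with the replicates combined by the authors, so it is given below without an SD. Each occupancy value of the members was a sum of whole reads of 3 different worths, 1 for each library, which gave back the number of reads at every codon and, from the worth of a read, the relative abundance of each mRNA. Of 7 genes known from HEK293 cells, 6 had a transcript with such a value. Vimentin (VIM) was at 21.9 times the median transcript and the neurofilaments NEFL and NEFM at 18.9 and 16.3 times. KRT18 was at 2.76 times, KRT8 at 0.438 and the kidney transcription factor LHX1 at 0.0852. PAX2 had no transcript with such a value. Of 5 leukocyte markers, 0 had one. The 34 members held 155142 in-frame reads in their coding sequences (CDS), with a median of 958.5 per member. SLC25A5 held 38.9% of these reads, whereas SLC25A29 had 22 and SLC25A27 had 44.

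The repeats can be read in the coding sequences themselves. A codon pattern matching the signature motif was searched in frame: a codon starting with CC, then any codon, a codon starting with GA, any 2 codons, and a codon starting with AA, AG or CG. The last of these is lysine or arginine in 78 of the 82 copies found in members, asparagine in 2 and serine in 2. The pattern was chosen after occupancy values had been seen. In SLC25A5, the widely expressed ADP/ATP carrier, it occurred at codons 28, 133 and 230, close to 100 codons apart. The copies are shown because the occupancy described below is aligned to them. All copies lie in coding exons. Capitals mark the bases that define the pattern, sequences are from GENCODE on GRCh37 (the build of hg19), and those of SLC25A5 and SLC25A10 lie on the plus strand.
SLC25A5 copy 1, chrX:118602560-118602586: CCcatcGAgcgggtcAAgctgctgctg
SLC25A5 copy 2, chrX:118603909-118603935: CCtcttGAttttgccCGtacccgtcta
SLC25A5 copy 3, chrX:118604425-118604451: CCatttGAcactgttCGccgccgcatg
SLC25A10 copy 2, chr17:79682749-79683042 (across an intron): CCcgcaGActtggtcAAcgtcaggatg
The last marked codon of SLC25A10 copy 2 encodes asparagine, which is not basic.

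Of the 32 members matched to a single annotated coding sequence, 31 held at least 1 copy and 18 (56.2%) held at least 3. Of 8610 other coding sequences, 42.8% held at least 1 copy and 5.91% at least 3. The 82 copies in the members formed 51 neighbouring pairs with a median distance of 97 codons, and in 37 pairs the distance was within 15 codons of 100. SLC25A11 and SLC25A27 had no coding sequence of matching length in the annotation and were not searched.

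Translational efficiency spanned 131-fold within the family. The ADP/ATP carriers SLC25A5 and SLC25A4 and the phosphate carrier SLC25A3 were among the most efficiently translated members. Citrin (SLC25A13) and the pyrimidine nucleotide carrier SLC25A33 were also among them. The ATP-Mg/phosphate carrier SLC25A25 and the glutathione carrier SLC25A39 were among the lowest. Against the median of all genes, 8 of the 28 members were higher and 17 were lower (limma, FDR 0.05). Because replicates were close, most genes differed from the median: 44.7% of the 8121 genes tested were called higher and 44.6% lower, 89.3% in all. The median member was at 0.730 of the median gene, a log2 difference of -0.45. The 94 solute carriers outside the family had a similar balance, with 28 higher, 56 lower and a median log2 difference of -0.48. The labels do not say whether replicates were separate cultures, so p-values measure only the spread between these samples.

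SLC25A5, which exchanges matrix ATP for cytosolic ADP, had a TE of 4.50, 4.44 and 4.39 in replicates 1, 2 and 3. It was the highest member and lay above 97.3% of all genes, 11.3 times the median gene (log2 difference 3.50, SE 0.0475, adjusted p = 1.06e-06, limma). Its paralog SLC25A4, the ADP/ATP carrier best known from heart and muscle, had 2.11, 1.93 and 2.07. The 2 coding sequences have the same length and were 77.3% identical in nucleotides, and the TE of SLC25A5 was 2.19 times that of SLC25A4 with no overlap between replicates. The phosphate carrier SLC25A3, which supplies phosphate for ATP synthesis, had 1.17, 1.22 and 1.30 (log2 difference 1.66, SE 0.0557, adjusted p = 6.14e-06, limma). All 3 of these carriers of oxidative phosphorylation were above the median gene in every replicate.

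**Figure D1:**
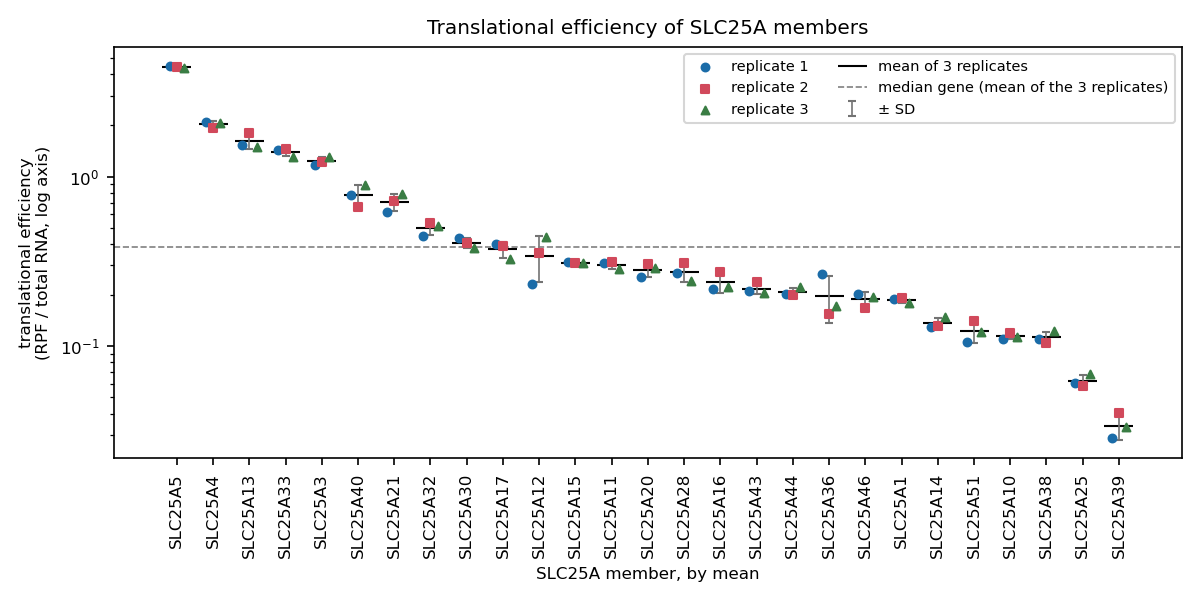
Translational efficiency (RPF to total RNA, log axis) of SLC25A members in each replicate, with the mean and SD; the dashed line is the median gene. SLC25A5 lies apart at the top, with a mean of 4.44, and SLC25A39 is lowest, with a mean of 0.0339.

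Among the 6 carriers of amino acids and carnitine tested, 1 was higher, 4 were lower and 1 was not called. SLC25A13, the aspartate/glutamate carrier citrin, was the highest with a TE of 1.54, 1.81 and 1.502. Its paralog aralar, SLC25A12, had 0.233, 0.354 and 0.439 and was not called, with the widest spread of any member on the log2 scale (SD 0.45). The glycine carrier SLC25A38 was the lowest of this group, with 0.110, 0.105 and 0.122. The ornithine carrier SLC25A15, the carnitine/acylcarnitine carrier SLC25A20 and the branched-chain amino acid carrier SLC25A44 were also lower than the median gene, with means of 0.309 ± 0.00383, 0.283 ± 0.0265 and 0.209 ± 0.0120 (SD, n = 3).

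The 4 di- and tricarboxylate carriers divided into 1 higher and 3 lower. The oxodicarboxylate carrier SLC25A21 had a TE of 0.620, 0.719 and 0.787, above the median gene in each replicate. The dicarboxylate carrier SLC25A10 had 0.110, 0.119 and 0.113, below it in each. The oxoglutarate/malate carrier SLC25A11 and the citrate carrier SLC25A1 were lower as well, with means of 0.302 ± 0.0165 and 0.187 ± 0.00655 (SD, n = 3).

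Of 7 carriers of other nucleotides and cofactors, 2 were higher, 4 lower and 1 was not called. SLC25A33 had a TE of 1.44, 1.45 and 1.30, and SLC25A36, the other pyrimidine nucleotide carrier, had a mean of 0.197 ± 0.0612 (SD, n = 3), so that the means differed 7.07-fold. SLC25A32, a carrier of folate and FAD, was higher than the median gene (0.494 ± 0.0447, SD, n = 3). SLC25A16, linked to coenzyme A, and the NAD carrier SLC25A51 were lower, with means of 0.237 ± 0.0312 and 0.122 ± 0.0175 (SD, n = 3). The peroxisomal cofactor carrier SLC25A17 was not called (0.371 ± 0.0400, SD, n = 3).

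The 2 glutathione carriers lay far apart. SLC25A40 had a TE of 0.773, 0.664 and 0.888, and SLC25A39 had 0.0285, 0.0402 and 0.0331, a 22.8-fold difference of the means with no overlap. SLC25A39 was the lowest member of all (log2 difference -3.17, SE 0.0857, adjusted p = 3.38e-06, limma). The mitoferrin SLC25A28, an iron carrier, had 0.269, 0.308 and 0.243 and was lower than the median gene. SLC25A25, the calcium-regulated ATP-Mg/phosphate carrier with a TE value, was lower at 0.0609, 0.0581 and 0.0683. In the uncoupling protein branch, SLC25A30 had 0.433, 0.405 and 0.3799 and was not called, and SLC25A14 was lower at 0.130, 0.132 and 0.149. The remaining members, SLC25A43 of unknown substrate (0.212, 0.237 and 0.207) and SLC25A46, an outer membrane protein of mitochondrial dynamics (0.203, 0.168 and 0.195), were both lower.

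When members were ordered by mean TE, the replicates of 18 of the 27 neighbouring pairs overlapped. The 9 gaps lay mostly at the ends: SLC25A5, SLC25A4 and SLC25A13 each stood clear of the next member, as did SLC25A38 and SLC25A25 at the lower end, while the 13 members from SLC25A30 to SLC25A1 formed an unbroken run of overlapping neighbours.

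Carriers reach the inner membrane through TOM, the small TIM chaperones and the TIM22 complex, and most genes of this route lay above the median gene. Of 14 genes of this import route, 9 were higher, 4 lower and 1 was not called, with a median log2 difference of 1.17. TOMM20, a receptor of the outer membrane, was at 7.48 ± 0.0649 and the chaperone TIMM13 at 4.27 ± 0.350, whereas the pore TOMM40 was at 0.186 ± 0.00560 (SD, n = 3). Of 16 other mitochondrial membrane transporters, 11 were higher and 5 lower, with a median log2 difference of 0.47. The outer membrane channels VDAC1, VDAC2 and VDAC3 were higher, and MCU, the pore of the calcium uniporter, was lower. MTCH1, a carrier homolog with another symbol, was lower at 0.128 ± 0.00696 (SD, n = 3).

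Mean occupancy over the CDS, the authors' combined value per codon, gave a related order from the second table. The median of the 34 members was 0.0293 (exact order-statistic 95% interval over members 0.0192 to 0.0659), against 0.0450 for the median of all 9570 transcripts. Of the members, 13 were above and 21 below that median. The highest were SLC25A4 at 0.203, SLC25A21 at 0.139 and SLC25A30 at 0.123, and the lowest were SLC25A27 at 0.00614, SLC25A23 at 0.00617 and SLC25A29 at 0.00961. Both SLC25A23 and SLC25A24 (0.0873) are calcium-regulated ATP-Mg/phosphate carriers, with 257 and 3894 CDS reads.

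The ADP/ATP carriers changed places between the tables. The occupancy of SLC25A4 was 1.91 times that of SLC25A5 (0.106), although its TE was lower. By the worth of a read, which gives the relative abundance of each mRNA, SLC25A5 mRNA was 21.0 times the median transcript and SLC25A4 mRNA 0.914 times. Of the SLC25A5 coding sequence, 38.5% of all 30-nt stretches also occur in transcripts of its pseudogenes, and of SLC25A4 0%. The part of shared sequence in this reversal was not tested.

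Across the 26 members in both tables, TE and occupancy had a Spearman coefficient of 0.687 and a Pearson coefficient of 0.655 on the log2 scale. Over all 6912 genes in both tables the Spearman coefficient was 0.688. These are descriptions, since both measures divide reads of the same RPF libraries by total RNA. Of the 26, 22 lay on the same side of both medians. The widest gap was that of SLC25A33, which lay above 86.9% of genes in TE and above 13.4% of transcripts in occupancy. The other 3, SLC25A12, SLC25A17 and SLC25A36, were below the median in TE and above it in occupancy. Of the 30-nt stretches of SLC25A33, 80.7% are shared with a transcript of another annotated gene. Sharing was also high for SLC25A10 (87.5%), SLC25A32 (83.2%) and SLC25A51 (71.6%), while 21 of 32 members had under 1%. Its part in their values was not tested.

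**Figure D2:**
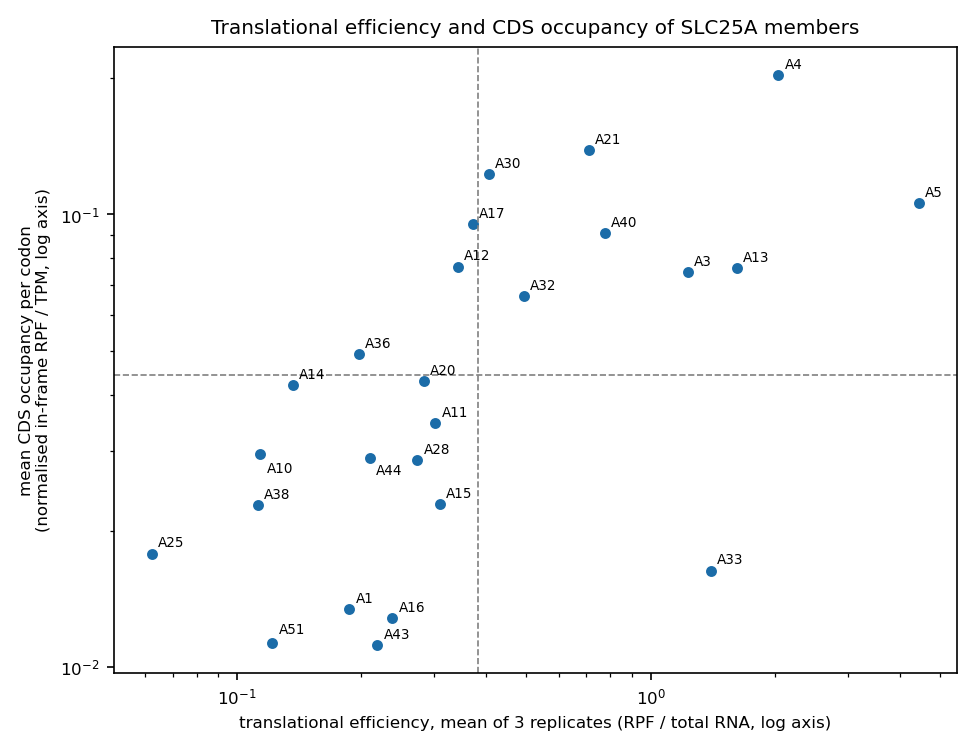
Mean translational efficiency against mean CDS occupancy (both on log axes) of members in both tables, labelled without the SLC25 prefix; dashed lines are the medians of all genes and of all transcripts over 100 codons. The Spearman coefficient is 0.687 over all 26 members; A33 lies at the lower right, and A12, A17 and A36 lie to the upper left of where the medians cross.

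The context of the start codon was read from the annotation. An A or G stood 3 bases before the start codon in 20 of 31 members (64.5%), against 85.6% of 8104 genes, and a G followed the start codon in 18 of 31 (58.1%), against 53.3%. The contexts of some members towards both ends of the TE order are given with the base 3 before the start, the start codon and the base after it in capitals.
SLC25A5: tcctctttcAacATGAca
SLC25A4: cgagctgtcAccATGGgt
SLC25A13: ccggggcgaAtcATGGcg
SLC25A38: gcctcatctCcaATGAtt
SLC25A25: gcctcgcgcCcgATGGtg
SLC25A10: ctctcctggGccATGGca
The 3 efficient members shown have an A at that position, and of the 3 inefficient ones 2 have a C and 1 has a G. Over all members with a context and a TE value, an A or G stood there in 6 of the 7 called higher and in 9 of the 14 called lower, among them SLC25A51, SLC25A14, SLC25A1 and SLC25A36. This difference was not tested. SLC25A39, the lowest member, was not analysed for its start codon.

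Since the family is built of 3 repeats, each CDS was divided into 3 parts of equal length. The parts do not follow the repeats in every member. In SLC25A25 (504 codons) the first copy of the pattern stood at codon 240. In SLC25A12 (679 codons) copies stood at codons 13, 346, 446 and 538. A share in the first part is therefore not the share of the first repeat. Over the members, the median share was 31.1% in the first, 33.4% in the middle and 32.7% in the last, beside 33.03%, 33.7% and 31.8% of all transcripts over 100 codons. Single members were far from even, and the highest share lay in the first for 11 members, the middle for 10 and the last for 13. It was the same in all 3 libraries for 21 of the 34. The mitoferrin SLC25A37 had 61.9% in the first part and 7.41% in the last, and across the 3 libraries the first held 57.4% to 67.2% of its reads. SLC25A23, the glutamate carrier SLC25A22, SLC25A25 and SLC25A12 were also loaded towards the start, with 57.3%, 55.8%, 52.7% and 52.3%. SLC25A20 had 56.6% in the middle, between 50.9% and 62.4% of reads by library. SLC25A11 had 49.8% in the last part and SLC25A5 44.9%, where the libraries ranged from 44.6% to 45.5%. The mean of the first 75 codons exceeded that of the last 75 in 13 of the 34 members. The same count over all transcripts is not given here, so it has no comparison. The medians of these windows were 0.0301 and 0.0293, against 0.0388 and 0.0399 in all transcripts over 100 codons. With windows of 50 codons, the medians of members lay further apart, at 0.0343 in the first and 0.0190 in the last. Those of all transcripts over 100 codons were 0.0348 and 0.0384.

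**Figure D3:**
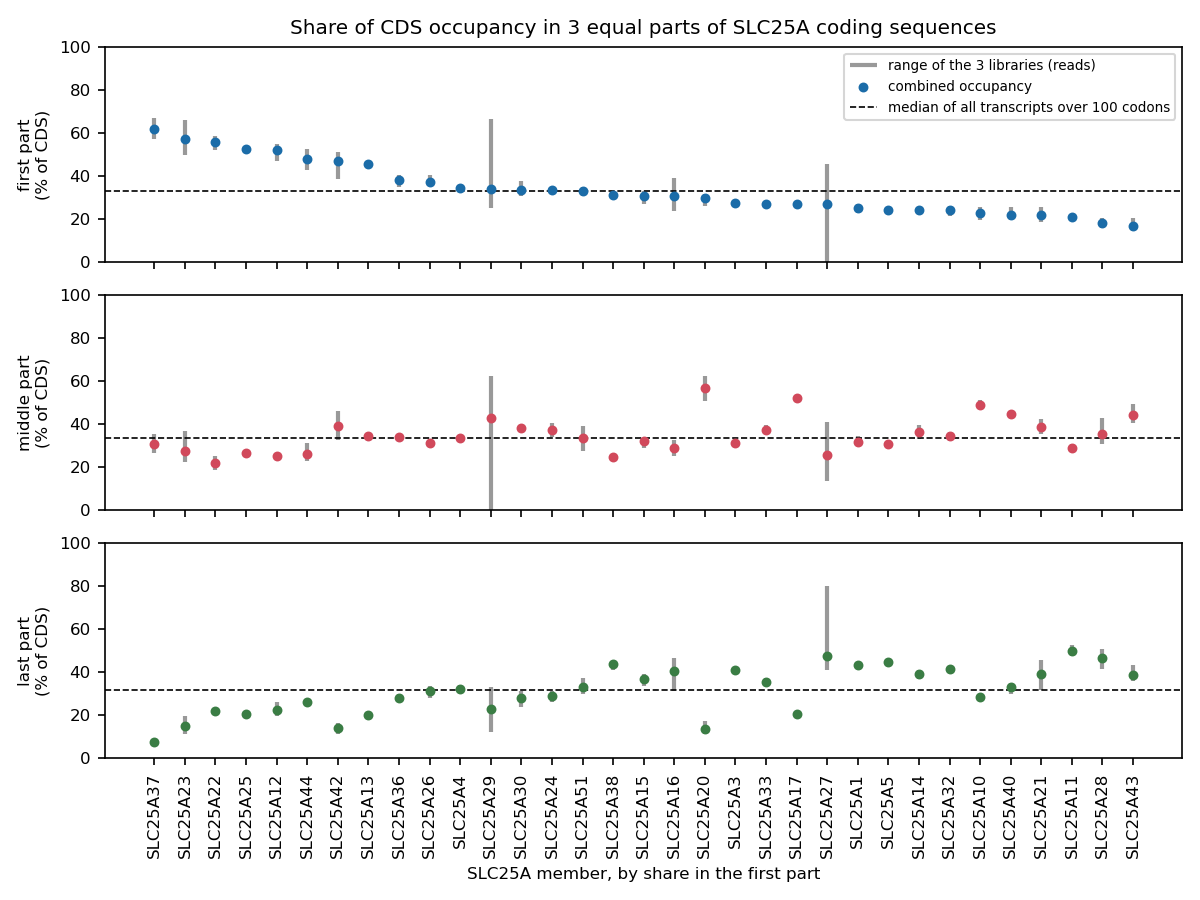
Share of CDS occupancy (percent) in the first, middle and last of 3 equal parts of the members' coding sequences, ordered by the first; points are the combined occupancy, bars the range of the 3 libraries in reads, and dashed lines the median of all transcripts over 100 codons. SLC25A37 is highest in the first part (61.9%), SLC25A20 in the middle (56.6%) and SLC25A11 in the last (49.8%); the long bars of SLC25A29 and SLC25A27 rest on 22 and 44 reads.

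Within this uneven distribution, occupancy was lower before the pattern of the repeats than from it onwards. Scaled to the mean of the same CDS, the 10 codons before a copy of the pattern averaged 0.536 and the 10 codons from its first codon on averaged 1.52 over the 82 copies. Around 5858 copies in other genes the values were 0.882 and 1.12. Taken by member, 29 of 31 (93.5%) had the higher mean after the start of the pattern, and 26 of them in all 3 libraries separately. Among 3682 other genes with a copy, 58.7% had the higher mean after it. Members average over more copies each (82 in 31 members) than other genes (5858 in 3682), so these 2 shares are not like for like. Copy by copy, 67 of the 82 in members were higher after the start of the pattern. The same count over the copies in other genes is not given here, so this share has no comparison. The carriers are related in sequence and are not independent of each other. By library, the mean before the pattern was 0.517 to 0.571 and after it 1.43 to 1.59.

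Before the pattern, the members fell to 0.268 of their mean 6 codons upstream, where other genes were at 1.08. Within the pattern, peaks stood 1 and 4 codons after its first codon in both sets, at 2.21 and 2.70 in members and at 1.70 and 1.61 in other genes. The means of members were 1.56 to 1.77 between 7 and 9 codons after it, against 1.06 to 1.19. Medians in members were lower than these means. They were 0 at 6 codons upstream and 0.752 and 1.39 at the 2 peaks. At 7, 8 and 9 codons after the first codon they were 0.372, 0.610 and 0.259, so high values at some copies carry the means. In SLC25A4, copies 2 and 3 went from 0.224 to 2.28 and from 0.119 to 3.90. In SLC25A10, all 3 copies moved the same way, and copy 2, printed above, went from 0.291 to 6.67. The 10 codons of the latter value include codon 126, which alone held 19.6% of the CDS occupancy of SLC25A10. SLC25A5 had a smaller step, from 0.307 to 0.493 over its copies. The exceptions were SLC25A3, with 1.04 before and 0.967 after, and the coenzyme A carrier SLC25A42, with 0.733 and 0.674 on 110 reads.

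**Figure D4:**
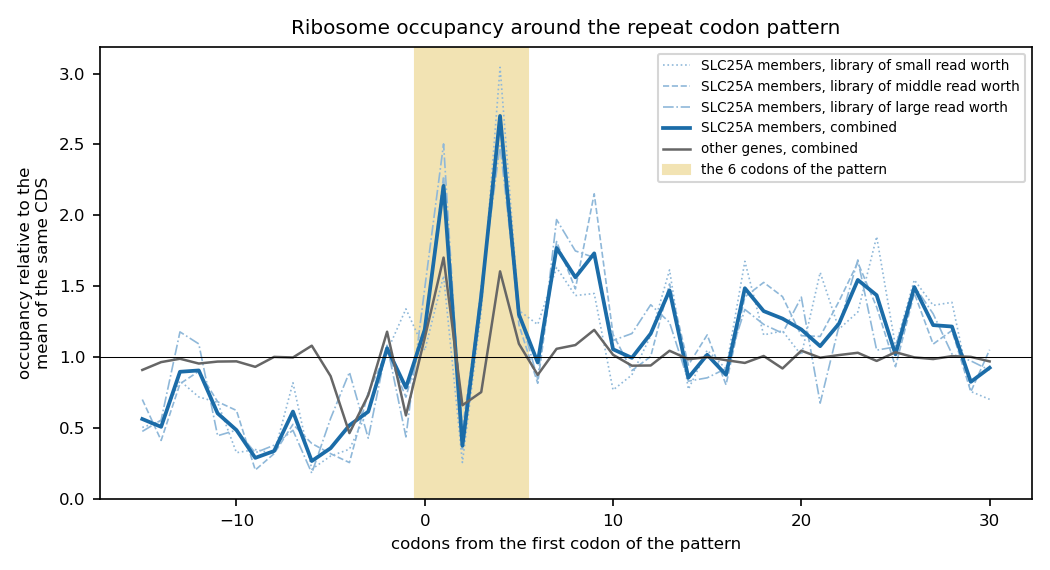
Occupancy relative to the mean of the same CDS, by distance in codons from the first codon of the pattern: members combined (thick line, 82 copies), members in each library (thin lines) and other genes (grey, 5858 copies). Lines are means over copies. Members lie below other genes from 10 to 5 codons before the pattern and peak at 2.21 and 2.70 inside it.

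Some coding sequences were dominated by 1 codon. The highest codon held a median of 5.88% of CDS occupancy in members and 4.86% in all transcripts over 100 codons. The median CDS was shorter in members, with 313.5 against 457 codons, and the part of length in these shares was not tested. In SLC25A17 codon 129 held 26.2%, with 1242 reads and 23.8% to 28.01% of the reads of each library. In SLC25A10 codon 126 held 19.6%, with 354 reads and 15.1% to 23.9% by library, and it is the eighth codon counted from the start of copy 2. In SLC25A42 codon 211 held 14.8%, on 16 reads (Wilson 95% interval 9.16% to 22.3%). In SLC25A29 codon 144 held 13.6% on 3 reads, and in SLC25A4 codon 93 held 12.4% on 628 reads. The sequences at these peaks are shown with the codon in capitals, to show what lies there. Reads carry no molecular count beyond the authors' removal of duplicates, so the intervals cover counting error only.
SLC25A17 codon 129, chr22:41175077-41175079, minus strand: gtaaacaccagaCTGaagcttcaagga
SLC25A10 codon 126, chr17:79682770-79683039, across an intron: ttggtcaacgtcAGGatgcagaacgac
SLC25A42 codon 211, chr19:19218836-19218838: acctatgagacgCTCaagagcttgcac
SLC25A4 codon 93, chr4:186066083-186066085: ttcgccttcaagGACaagtacaagcag
The codons at the peaks of 30 members were of 22 kinds, none of them in more than 3 members. The read window at the peak occurs in a transcript of another gene for SLC25A10, SLC25A32, SLC25A33 and SLC25A51, and not for SLC25A17 or SLC25A4.

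In the 5′UTR, in-frame occupancy summed to a median of 1.19% of CDS occupancy (interval 0.405% to 3.78%), against 0.357% in all transcripts over 100 codons. Without the 5 codons next to the start the medians were 0.709% and 0.210%. These are sums over regions of unlike length. Members had a longer median 5′UTR (66.5 against 57 codons) and a shorter median CDS (313.5 against 457 codons). The part of length in the 5′UTR shares was not tested. The share was at least 10% in 5 members, and in 4 without the 5 codons next to the start. How many of all transcripts reach 10% is not given here, so these counts have no comparison. SLC25A51, the NAD carrier, stood out with 63.5% on 244 reads, and between 59.3 and 70.0 5′UTR reads for every 100 CDS reads in the 3 libraries. Of these reads, 169 fell on 1 codon, 41 codons before the start, and 97.5% lay between in-frame stop codons at -65 and -38, with an in-frame AUG at -56. Beyond the last 55 codons of the 5′UTR the 2 matched transcripts differ, so the AUG and the stop before it hold for 1 of them. The read window also occurs in transcripts of 3 other genes, among them SLC25A52. SLC25A44 had 30.8% on 174 reads, of which 66 fell 43 codons before the start and 92.5% lay between stops at -50 and -30, with no AUG in frame.

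In SLC25A14 and SLC25A1 most of the 5′UTR signal lay where another isoform is coding. SLC25A14 had 16.7% on 151 reads (4.87% without the 5 codons next to the start), with 74 at the codon 5 before the start, and 89.0% of it in codons annotated as CDS of another isoform. All of the 154 reads of SLC25A1 (9.38%) lay in such codons. SLC25A26, the S-adenosylmethionine carrier, had 20.4% on 65 reads, with 32.1% of it in such codons, and SLC25A29 had 23.2% on 5 reads. Next to the start codon, over the last 17 codons of the 5′UTR, mean occupancy was highest in SLC25A14 (0.119), SLC25A30 (0.0402) and SLC25A20 (0.0297), against a median of 0.00291 for the 31 members with a 5′UTR over 100 nt. The highest 5′UTR codons are shown in capitals.
SLC25A51 codon -41, chr9:37899904-37899906, minus strand: agagagaacctaACAgaacaataacaa
SLC25A44 codon -43, chr1:156163923-156163925: cgagatggaggaAGAtgcgaccggcag
SLC25A14 codon -5, chrX:129479171-129479173: cagaaaagtaccACTgtaagtcatgag

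**Figure D5:**
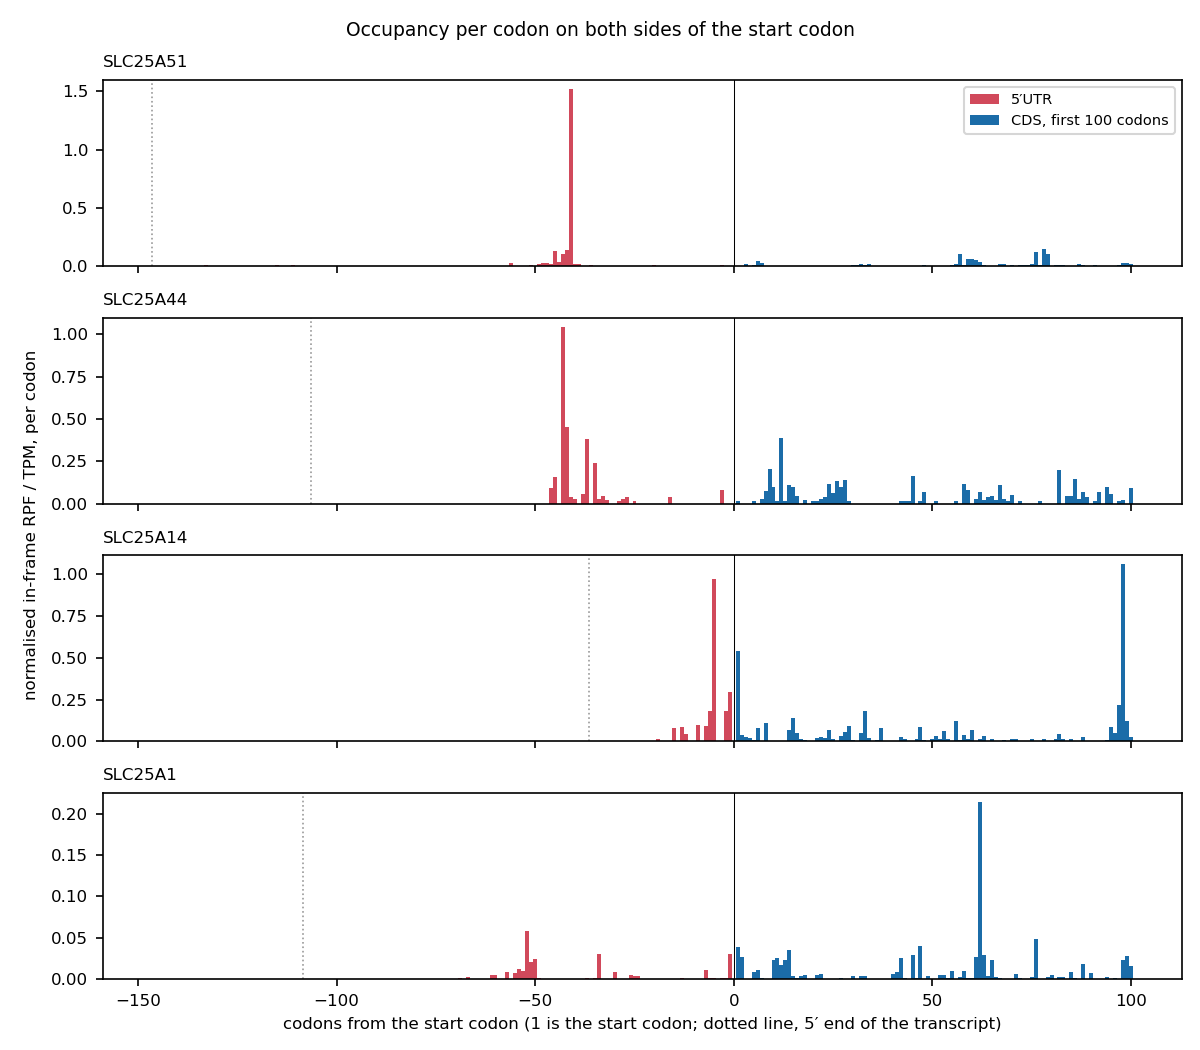
Occupancy per codon (normalised in-frame RPF divided by TPM) in the 5′UTR and in the first 100 codons of the CDS of 4 members, by distance from the start codon; each panel has its own scale. The 5′UTR of SLC25A51 holds a single high codon at 41 before the start, and in SLC25A1 and SLC25A14 at least 89.0% of the signal lies in codons annotated as CDS of another isoform.

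The 3′UTR was nearly empty. All 34 members together had 88 in-frame 3′UTR reads, and 14 members had none, which allows up to 3 reads each. The shares of CDS occupancy were highest in SLC25A37 (7.23%, 21 reads), SLC25A27 (2.30%, 1 read) and SLC25A15 (2.03%, 15 reads). In SLC25A37, 18 of the reads fell on 1 codon, 812 codons after the stop, and all 3 libraries contributed.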

How the data were processed

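Ribosome profiling and total RNA of HEK293 cells were analysed, with 3 libraries of each, from 2 processed tables. According to the methods, the authors removed adapters, duplicates and molecular identifiers, mapped RPFs with bowtie to hg19 transcripts, placed reads 28 to 30 nt long by an offset of 13 nt and used the most abundant transcript of each gene. The labels list cutadapt 1.16, Bowtie 1.1.2, TopHat2 2.1.1 and HTSeq 0.9.1, whereas the methods name Hisat2 for total RNA. The deposited TE values are a linear ratio (RPFs over total RNA) per replicate. No source used here states the formula. The deposited occupancy table holds other values, lists per codon in frame: RPF counts of the authors normalised for library size, divided by TPM, with replicates combined.

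For TE, log2(value + 0.01) of each gene was tested against the overall median with limma 3.58.1 (R 4.3.3), two-sided, over 8121 genes with no filter and Benjamini-Hochberg adjustment. TE replicates correlated with Pearson coefficients of 0.987 to 0.990 over genes. RPF and total RNA of one number share a lysate, so the pairing is within the ratio.

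The worth of a read in each library was found for 9556 of 9570 transcripts from the deposited values. All 6561 member values above 0 were whole sums at a relative tolerance of 1e-10, with 1 solution each. Worths were not assigned to replicates. The TE test and the recovery of reads were both tried on simulated data. For TE, 86.5% of 200 genes moved by 1 on the log2 scale were recovered, and 16 unmoved genes were called. All unmoved genes were set at the median there, unlike the real genes. Recovery of reads was exact in every codon of 400 of 400 transcripts. Occupancy was described and not tested. Coding sequences come from GENCODE 44 lifted to GRCh37, matched by symbol and CDS length (91.3% of transcripts). Protein sequences were not used here.

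The members and lists were chosen with earlier results of these data known. Values in every replicate are given for SLC25A3, SLC25A4 and SLC25A5, the 5 highest and 5 lowest members and the ends of each functional list. For occupancy, the 3 highest and 3 lowest are named, with the 3 highest peaks, 5′UTR windows and 3′UTR shares. Other members were named after their values were seen. The values of 1 member, which is part of all counts and medians, and of 1 other transporter are not reported here. Python 3.11.15, numpy 2.4.6, pandas 2.3.3, scipy 1.17.1 and numba 0.67.0 were used.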

Additional observations from a re-analysis of the deposited data

How the results depend on the processing

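Members higher and lower numbered 8 and 17 with a pseudocount of 0.1 or 0.001, without each replicate in turn and with a replicate block, in which each replicate's own median was removed; the block left the median log2 difference at -0.45. Leaving out replicates moved that median between -0.53 and -0.42. A filter at a mean of 0.05 left 26 members, 8 higher and 15 lower. With the mean of all genes as reference, the median log2 difference was -0.62, with 8 higher and 18 lower. Members that were not called changed sign in 3 cases: SLC25A12, which ranged from -0.40 to 0.035 when a replicate was left out (0.035 without replicate 1), SLC25A17, which ranged from -0.11 to 0.047 (0.047 without replicate 3), and SLC25A30 against the mean (-0.087), where SLC25A17 was called lower. Median CDS occupancy was 0.0178 without the highest 5% of codons, and that of the last 50 codons was 0.0190. Both lay below the lower interval ends of their main settings, 0.0192 and 0.0194. Without the 5 codons next to the start, the median 5′UTR share was 0.709%, inside its interval of 0.405% to 3.78%. The other occupancy medians also stayed within their intervals, among them that of the first 50 codons at 0.0343. After the values had been seen, the codon pattern was recounted: 29 of 31 members were higher after it with windows of 5 codons, 28 of 31 with 15 or without the highest codon, 28 of 30 with at least 100 reads, 23 of 25 with under 10% shared sequence, and 30 of 31 over the copies with a lysine or arginine codon. Low read numbers limit SLC25A29, SLC25A27 and SLC25A42.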
